A study of Mus musculus with 6 samples.

Results

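Transcripts of integrin subunits and of the cytoplasmic proteins that join them to actin were described in RET mouse melanoma cells with and without silencing of Angpt2. The set was a list of 35 symbols, 26 integrin subunits and 9 cytoplasmic focal adhesion proteins. It was chosen by name and not by a rule on the values, but with earlier results of these data known. Of the 35 symbols, 32 had a table row annotated with their symbol alone and were measured, out of 22180 named genes in all. Itga10 and Ptk2, which encodes focal adhesion kinase, were not analysed here, nor was Ilk, whose symbol stood only on rows shared with Taf10 or Rrp8.

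The control group was the RET line (strain given as C57BL\6) with a non targeting shRNA, in samples whose titles also read GFP, and the other group was the same line with Angpt2 shRNA-1. Each group had 3 cultures, labelled as biological replicates, grown for 24 h after seeding of equal cell numbers, and total RNA of each culture was hybridised to its own Affymetrix Mouse Gene 2.0 ST array. A single hairpin against Angpt2 was used, so effects of Angpt2 loss, of this hairpin and of differences between the cell populations cannot be told apart. Fewer cells carrying a transcript and less transcript per cell also cannot be told apart in such bulk RNA. Values are the authors' normalized intensities on a linear scale. Fold changes are Angpt2 shRNA-1 over control, on the log2 scale, from a limma fit over all named genes with Benjamini-Hochberg adjustment and a threshold of 0.05.

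Integrins are heterodimers of an alpha and a beta chain that span the plasma membrane and bind extracellular matrix or receptors on other cells. Talin and kindlin bind the short beta tail and switch the receptor on, vinculin and paxillin are recruited to the growing contact, parvin and ILK work with kindlin, and zyxin marks contacts under tension. In melanoma the pairs built on Itgav and Itgb3, and the VCAM1 receptor formed by Itga4 with Itgb1, have long been studied in invasion and metastasis. Angiopoietin-2 itself has been described as a ligand of integrins in cells with little Tie2, its usual receptor.

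Intensities of Angpt2 did not overlap between the groups, at 195, 372 and 326 in control replicates 1, 2 and 3 and 100.2, 122 and 122 in the same-numbered Angpt2 shRNA-1 replicates (log2 fold change -1.33, SE 0.21, limma adjusted p = 1.00, 0.046 with the replicate block and 0.0116 without control replicate 1, its lowest control array). Tek, which encodes Tie2, was below the array median on every array (54.9 to 66.0). All 8 melanocyte lineage markers measured, among them Mitf, Sox10, Pmel and Dct, stood above the upper quartile of every array, at 599 to 9651. Of 27 measured markers of leukocytes, endothelium, fibroblasts, keratinocytes and platelets, 7 stood above the array median on all arrays and 1, Pdgfrb, above the upper quartile. The table carries no detection calls, and dim signals could not be told from background. Array medians over the 40425 complete rows were 74.6 to 76.3 and upper quartiles 170.1 to 175.

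The promoters of 4 members are shown, chosen after the values were seen. Itga1 was the member with the smallest p, Zyx and Itgb5 stood out on the same control array, and Vcl, the vinculin gene, held the motif that is the classical response element of serum response factor. Each is the 250 bases before the RefSeq start (GRCm38.p6), in the direction of the gene, with motif matches in capitals.
Itga1, chr13:115101965-115102214, - strand: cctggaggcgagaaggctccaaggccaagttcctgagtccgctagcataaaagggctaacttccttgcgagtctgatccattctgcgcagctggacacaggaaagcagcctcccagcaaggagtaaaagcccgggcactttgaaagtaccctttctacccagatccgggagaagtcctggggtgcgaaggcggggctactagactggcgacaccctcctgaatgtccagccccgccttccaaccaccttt
Zyx, chr6:42349578-42349827, + strand: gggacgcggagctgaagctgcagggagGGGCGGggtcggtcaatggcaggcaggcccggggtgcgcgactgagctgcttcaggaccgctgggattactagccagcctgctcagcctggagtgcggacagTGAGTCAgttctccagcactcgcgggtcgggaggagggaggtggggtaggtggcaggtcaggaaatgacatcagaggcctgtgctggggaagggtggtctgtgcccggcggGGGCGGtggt
Itgb5, chr16:33829415-33829664, + strand: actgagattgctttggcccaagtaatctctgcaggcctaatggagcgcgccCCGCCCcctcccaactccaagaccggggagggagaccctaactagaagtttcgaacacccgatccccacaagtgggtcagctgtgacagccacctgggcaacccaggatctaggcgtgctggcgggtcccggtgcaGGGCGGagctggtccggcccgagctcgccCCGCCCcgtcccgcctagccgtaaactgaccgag
Vcl, chr14:20929148-20929397, + strand: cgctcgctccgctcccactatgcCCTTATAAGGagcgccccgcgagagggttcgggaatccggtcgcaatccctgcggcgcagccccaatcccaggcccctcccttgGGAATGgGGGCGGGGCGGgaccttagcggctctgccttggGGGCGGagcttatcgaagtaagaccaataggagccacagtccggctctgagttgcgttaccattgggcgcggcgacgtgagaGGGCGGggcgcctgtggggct
The motifs searched on both strands were the CArG box of serum response factor, TGANTCA of AP-1, GGAATG of TEAD factors and GGGCGG of Sp1. They were found in 1.47%, 6.75%, 12.6% and 32.7% of the 32851 promoter windows in the RefSeq table. Among the 21 members with a promoter there (23 windows), 3 held a CArG box (Vcl, Fermt2 and Itgb6), 2 an AP-1, 2 a TEAD and 9 an Sp1 match. Vcl held 1 CArG box starting 227 bases before the start, 1 TEAD match and 4 Sp1 matches, of which a neighbouring pair overlaps by 1 base. Zyx held 1 AP-1 and 2 Sp1 matches, Itgb5 held 3 Sp1 matches, and Itga1 had 0 matches to these letters in this window. No binding was measured, and a match is a description of the sequence.

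Of the 32 members, 21 stood above the array median on all 6 arrays, or 65.6% against 51.2% of all named genes. These were Itga1, Itga4, Itga5, Itga6, Itga7, Itga9, Itga11, Itgal, Itgav, Itgb1, Itgb2, Itgb3, Itgb4 and Itgb5 and all 7 cytoplasmic genes measured. Of them 15 were also above the upper quartile on all arrays, 46.9% of members against 32.0% of named genes. Itga3, Itgad, Itgae, Itgam, Itgax and Itgb6 were below the median on all 6 arrays, and Itga2, Itga2b, Itga8, Itgb7 and Itgb8 crossed it. Just inside, Itga11 was at 1.00 to 1.19 times the median of its array, and just outside, Itga2b was at 0.99 to 1.16 times. An intensity also depends on the probes of a row, so members are set against the array and not ranked against each other as amounts of transcript.

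**Figure D1:**
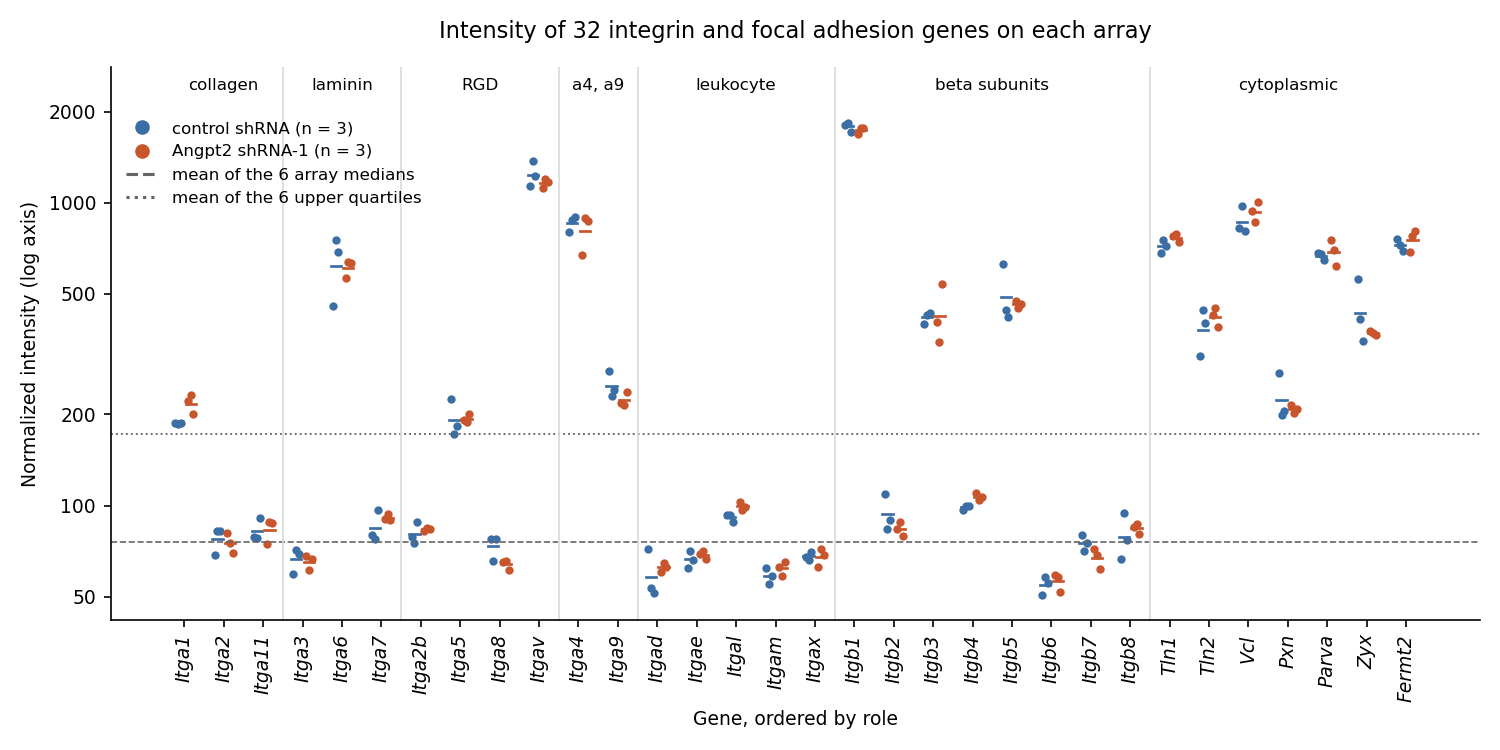
Normalized intensity (log axis) of the 32 measured genes, ordered by role, with 1 point per array (blue control shRNA, orange Angpt2 shRNA-1, n = 3 each) and short bars at the geometric mean of each group. The dashed and dotted lines mark the mean array median and upper quartile. The 15 genes above the upper quartile on all arrays include Itgb1 at 1683 to 1832 and all 7 cytoplasmic genes, while the points of both groups overlap for 28 of the 32 genes.

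No member passed the test. The limma fit called 0 of 32 members and 0 of 22180 genes (0% of genes), with the members' adjusted p-values all 1.00. With replicate numbers as a block it called 0 members and 2 genes (0.00902%). At an unadjusted p under 0.05 there was 1 member, Itga1, which was higher, against 3.76% of all genes (1.52% higher, 2.24% lower). The log2 fold changes were positive for 18 members and negative for 14, where all genes were positive in 45.2% and negative in 54.8%. The members' median was 0.018 and that of all genes -0.012. The members' fold changes ran from -0.22 (Zyx) to 0.22 (Itga1). The 95% intervals of the 25 integrin subunits, each taken singly, stayed within 0.41 of 0 on the log2 scale (1.33-fold), and those of all 32 members within 0.57 (1.48-fold). These intervals are not adjusted for the number of genes and give no limit of detection with 3 arrays per group. In the same fit Angpt2, at a log2 fold change of -1.33, was not called either. The groups did not overlap for 4 members, 12.5% against 9.01% of genes, namely Itga1, Itgal and Itgb4 (higher in Angpt2 shRNA-1 cells, as for 3.53% of genes) and Itga8 (lower, as for 5.48%). Exact permutation of single genes (two-sided) gave p = 0.1 for each of these, and no lower p is possible with 3 arrays in each group.

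**Figure D2:**
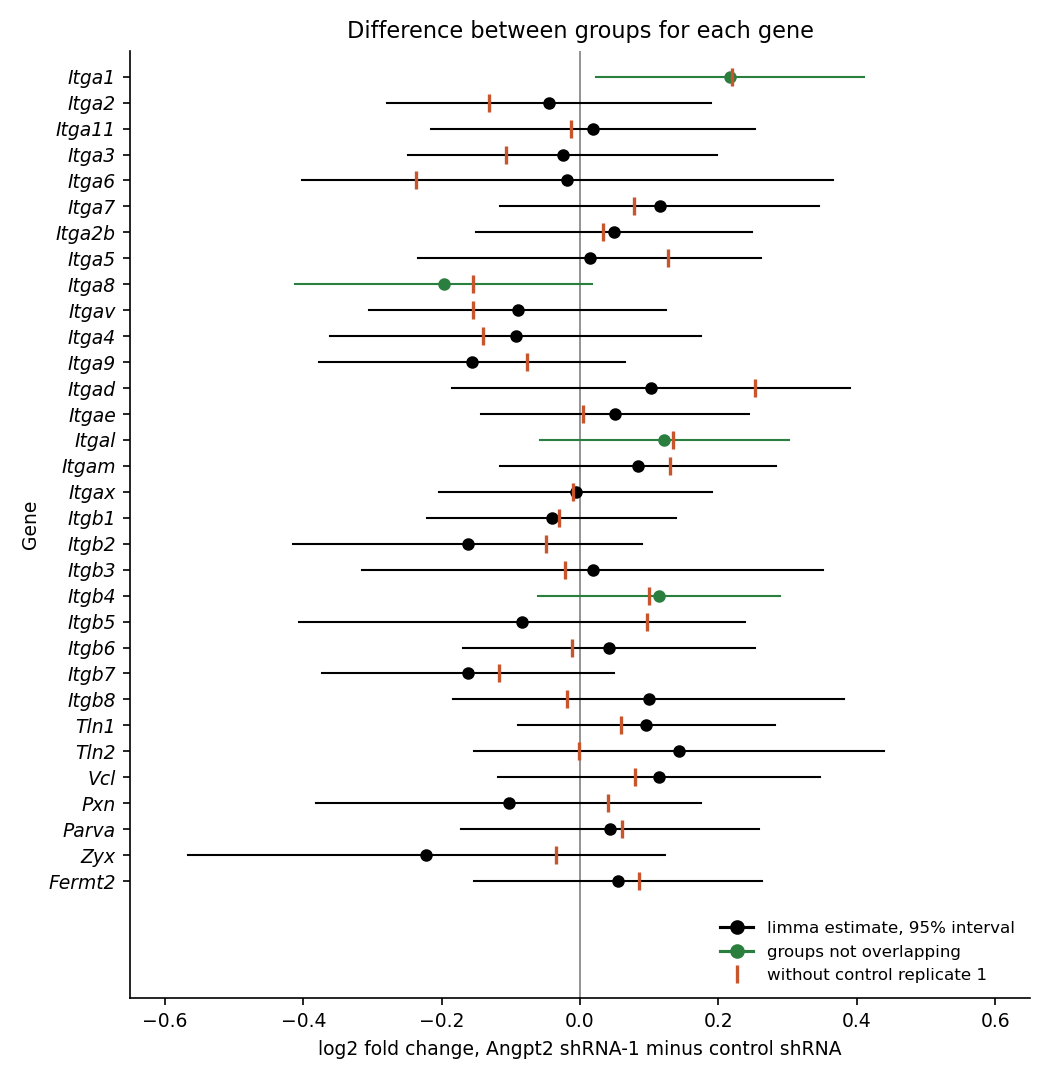
Log2 fold change of each member, Angpt2 shRNA-1 minus control shRNA, as a point with its 95% interval from the limma fit over all genes (3 arrays per group), in green where the groups do not overlap. Orange ticks give the estimate without control replicate 1. The interval of Itga1 alone leaves out 0, and the tick of Zyx moves from -0.22 to -0.03.

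Among the alpha subunits of collagen receptors, Itga1 had the largest fold change, which did not pass the test. Its product pairs with Itgb1 and binds collagen IV and other collagens. Intensities were 187, 186 and 187 in control replicates 1, 2 and 3 and 221, 232 and 201 in Angpt2 shRNA-1 replicates 1, 2 and 3. The controls lay close together and every Angpt2 shRNA-1 array was above them, at 7.55 ± 0.0039 in controls and 7.76 ± 0.10 with Angpt2 shRNA-1 (log2, SD, n = 3 each). The log2 fold change was 0.22 (SE 0.09, 95% interval 0.02 to 0.41), 1.16-fold higher, with an unadjusted limma p of 0.0318 and an adjusted p of 1.00. By replicate number the differences were 0.24, 0.31 and 0.10. Without Angpt2 shRNA-1 replicate 2, the highest array, the value was 0.17 with an unadjusted p of 0.123, and without Angpt2 shRNA-1 replicate 3, the lowest of its group, 0.27 with an unadjusted p of 0.0187. The unadjusted p was 0.0611 with trend and robust options. Itga11, a fibroblast collagen receptor chain, read 78.6, 77.9 and 90.7 in controls and 74.6, 88.4 and 87.5 in Angpt2 shRNA-1 cells, with overlapping groups (0.02, SE 0.10). Itga2, which pairs with Itgb1 on epithelium and platelets, stayed at 68.9 to 82.5 (-0.05, SE 0.10).

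Of the laminin receptor chains, Itga6 was well above the array median and Itga3 below it. Itga6, which binds laminins with Itgb1 or Itgb4, read 457, 755 and 686 in control replicates 1, 2 and 3 against 563, 638 and 633 in Angpt2 shRNA-1 cells. Control replicate 1 was the lowest array and control replicate 2 the highest, so the Angpt2 shRNA-1 values lay inside the control range. The fold change was -0.02 (SE 0.17), and -0.24 without control replicate 1, with an unadjusted limma p of 0.0433 and an adjusted p of 0.992. The sign was the opposite without control replicate 2 (0.13) or control replicate 3 (0.06). Itga7, best known as the laminin receptor chain of muscle, was close to the array median at 79.9, 77.3 and 96.8 in controls and 90.1, 94.1 and 89.7 after silencing (0.12, SE 0.10), with the Angpt2 shRNA-1 arrays again inside the control range. Its value was 0.22 without control replicate 3 (unadjusted limma p 0.0422), 0.05 without control replicate 2 and 0.08 without control replicate 1. Itga3 stayed at 59.2 to 71.6 (-0.02, SE 0.10).

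Chains that recognise the RGD sequence include Itgav, the partner of Itgb1, Itgb3, Itgb5, Itgb6 and Itgb8 in receptors for vitronectin, fibronectin and latent TGF-beta. Itgav read 1134, 1376 and 1222 in controls and 1119, 1201 and 1175 in Angpt2 shRNA-1 cells (-0.09, SE 0.10), and control replicate 2 was the highest array. The value was -0.01 without that array and -0.15 without control replicate 1. A further Itgav row, at 57.8 to 65.5 and so below the array median, gave -0.11. Itga5, the fibronectin receptor chain, read 225, 172 and 183 in controls and 191, 189 and 201 after silencing (0.01, SE 0.11). Control replicate 1 was its highest array, and the value ran from -0.07 to 0.13 with each array left out in turn, the upper end without that array. Itga8, a receptor chain of mesenchyme, read 77.8, 65.6 and 77.3 in controls and 65.2, 65.4 and 61.4 in Angpt2 shRNA-1 cells. All Angpt2 shRNA-1 arrays were below the controls, by a margin of 65.6 against 65.4 at the nearest point (-0.20, SE 0.09, 95% interval -0.41 to 0.02), with a range of -0.28 to -0.15 with each array left out. After quantile normalization these groups overlapped, and the signals lay at or below the array median on 4 of 6 arrays. Itga2b, the platelet fibrinogen receptor chain, stayed at 75.3 to 88.3 (0.05, SE 0.09).

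Itga4 and Itga9 form a branch of their own whose receptors bind VCAM1, fibronectin segments, osteopontin and tenascin. Itga4 read 803, 879.8 and 895 in control replicates 1, 2 and 3 and 673, 889.6 and 871 in Angpt2 shRNA-1 replicates 1, 2 and 3. The low array was Angpt2 shRNA-1 replicate 1, and the other 2 Angpt2 shRNA-1 arrays lay within the control range (-0.09, SE 0.12). Without that array the sign turned, to 0.04, and without any other array it stayed negative, down to -0.16. Itga9 read 278, 231 and 240.5 in controls and 218, 215 and 238 after silencing (-0.16, SE 0.10), highest on control replicate 1, at -0.08 without it and -0.21 without control replicate 2. Of their ligands, Fn1 (fibronectin) read 452, 459.7 and 447 in controls and 409, 521 and 592 in Angpt2 shRNA-1 cells (0.15, SE 0.13). Vcam1 stayed at 65.1 to 81.2 (-0.11, SE 0.10). Tnc (a tenascin) was at 59.1 to 75.2 (0.17, SE 0.10), above the array median on 1 array.

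Alpha subunits of leukocyte receptors were dim. Itgad, Itgae, Itgam and Itgax stood below the array median on all 6 arrays, at 51.6 to 72.0, and their fold changes ran from -0.01 (Itgax) to 0.10 (Itgad). That of Itgad rested on single arrays, at 0.25 without control replicate 1 (unadjusted limma p 0.0186) and 0.01 without control replicate 3. Itgal, which forms the ICAM receptor LFA-1 with Itgb2, read 93.0, 93.2 and 88.0 in controls and 103, 96.7 and 99.2 in Angpt2 shRNA-1 cells. All Angpt2 shRNA-1 arrays were above the controls, by a small margin (0.12, SE 0.08, 95% interval -0.06 to 0.30). Itgb2 read 109, 83.9 and 89.3 in controls and 83.5, 88.3 and 79.4 after silencing (-0.16, SE 0.11), with control replicate 1 the highest, -0.05 without that array and -0.24 without control replicate 2. Itgb7, which pairs with Itga4 or Itgae on lymphocytes, was above the array median on control replicate 1 alone, at 61.9 to 80.2 (-0.16, SE 0.09).

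Leukocyte markers were read beside these signals. Ptprc, the pan-leukocyte phosphatase CD45, was below the array median on every array (47.3 to 58.6). Of 7 leukocyte markers measured, 2 stood above the array median on all 6 arrays, Cd68 (126 to 175) and Coro1a (79.3 to 106), and 0 stood above the upper quartile on all 6. Their summed intensity was 569.8 to 637 in controls and 567 to 594 in Angpt2 shRNA-1 cells. Itgal (88.0 to 103) and Itgb2 (79.4 to 109) were below the upper quartile on all arrays, and the part of leukocyte RNA in their signals was not tested.

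**Figure D3:**
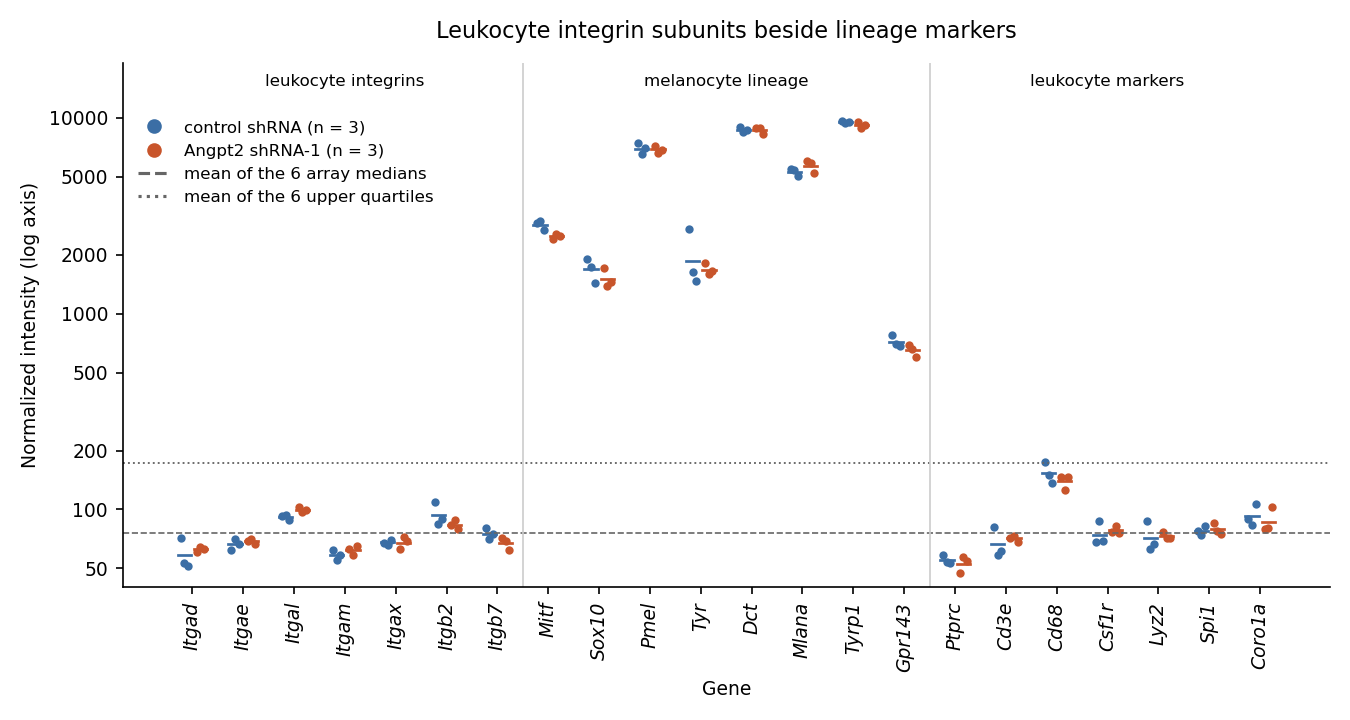
Normalized intensity (log axis) of leukocyte integrin subunits, melanocyte lineage markers and leukocyte markers, 1 point per array (blue control shRNA, orange Angpt2 shRNA-1, n = 3 each), bars at the geometric means, dashed and dotted lines at the mean array median and upper quartile. Lineage markers lie at 599 to 9651, and the integrins of the first panel between 51.6 and 109.

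Beta subunits were represented above the upper quartile by Itgb1, Itgb3 and Itgb5. Itgb1, the shared partner of most alpha chains named above, read 1813, 1832 and 1718 in controls and 1683, 1762 and 1767 in Angpt2 shRNA-1 cells (-0.04, SE 0.08, 95% interval -0.22 to 0.14). Its arrays differed little and the groups overlapped. Itgb3, the beta chain of the vitronectin receptor, read 396, 426 and 434 in controls and 405, 348 and 541 after silencing (0.02, SE 0.15). Angpt2 shRNA-1 replicate 3 was its highest array and Angpt2 shRNA-1 replicate 2 its lowest, and by replicate number the differences were 0.03, -0.29 and 0.32. The value of Itgb3 ran from -0.16 to 0.16 with each array left out. Itgb5, a vitronectin receptor chain found in adhesions and in clathrin structures, read 628, 444 and 419.9 in controls and 474, 449 and 462 after silencing (-0.08, SE 0.14). Control replicate 1 stood above the other 5 arrays, and without it the sign turned, to 0.10, while without control replicate 3, the lowest, the value was -0.19. Itgb4, the laminin receptor chain of hemidesmosomes, read 96.9, 99.9 and 99.9 in controls and 109.6, 104 and 107 in Angpt2 shRNA-1 cells. Its groups did not overlap, at 6.63 ± 0.03 in controls and 6.74 ± 0.03 with Angpt2 shRNA-1 (log2, SD, n = 3 each), with a fold change of 0.11 (SE 0.08, 95% interval -0.06 to 0.29). A row shared by Itgb4 and a neighbouring transcript gave -0.11, at 62.7 to 78.3. The TGF-beta activating chains Itgb6 (50.7 to 58.9; 0.04) and Itgb8 (66.7 to 94.8; 0.10) were dim, and Itgb8 was at -0.02 without control replicate 1, its lowest array, and 0.23 without control replicate 2, its highest (unadjusted limma p 0.0457).

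All 7 cytoplasmic genes measured were above the upper quartile on every array, and for each of them the groups overlapped. Tln1, the ubiquitous talin that activates integrins, read 682, 752 and 722 in control replicates 1, 2 and 3 and 774, 786 and 742 in Angpt2 shRNA-1 cells (0.10, SE 0.08). Tln2, its paralogue of muscle and brain, read 311, 441 and 401 in controls and 426, 449 and 388 after silencing (0.14, SE 0.13). Control replicate 1 was lowest for both talins, and without it Tln2 was at -0.0014 and Tln1 at 0.06. Without control replicate 2 they were at 0.25 and 0.13. Vcl, which encodes vinculin, the actin-binding partner of talin, read 825, 972 and 806 in controls and 938, 867 and 1006 after silencing (0.11, SE 0.10), with differences by replicate number of 0.19, -0.17 and 0.32 and a range of 0.06 to 0.20 with each array left out. Fermt2, the kindlin of most adherent cells, read 757, 728 and 694 in controls and 685, 776 and 805 after silencing (0.05, SE 0.09). Its Angpt2 shRNA-1 arrays spanned the whole control range.

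Parva, the parvin that binds ILK and actin, read 685, 676 and 645 in controls and 756, 698 and 620.0 in Angpt2 shRNA-1 cells (0.04, SE 0.10). Pxn, which encodes the scaffold paxillin, read 273, 199.6 and 205 in controls and 215, 202 and 208 after silencing (-0.10, SE 0.12). Control replicate 1 was its highest array, and without it the sign turned, to 0.04, while without control replicate 2 the value was -0.19. Zyx, which encodes zyxin, a LIM protein of contacts under tension, read 562, 412 and 350.2 in controls and 378, 370.4 and 365 after silencing. The Angpt2 shRNA-1 arrays lay close together and above control replicate 3, while control replicate 1 was far above the other 5 arrays. The fold change of Zyx was -0.22 (SE 0.15, 95% interval -0.57 to 0.12), -0.03 without control replicate 1 and -0.38 without control replicate 3, its lowest array (unadjusted limma p 0.0255).

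Control replicate 1 held the highest or lowest value of 18 of the 32 members, 9 each way, against 45.3% of all named genes on that array (25.8% highest, 19.5% lowest). Relative to the geometric mean of the other 5 arrays, it was 1.50-fold higher for Zyx, 1.40-fold for Itgb5, 1.33-fold for Pxn, 1.29-fold for Itgb2, 1.23-fold for Itgad, 1.22-fold for Itga9 and 1.20-fold for Itga5. It was 1.43-fold lower for Itga6, 1.35-fold for Tln2 and 1.27-fold for Itgb8. The same array was lowest for 5 of 7 actin linkers measured (Actn1, Actn4, Vasp, Flna and Myh9), and highest for 6 of 8 melanocyte lineage markers. These lists had the largest such shares of all lists counted. Over the 57 other adhesion genes measured (below), it was highest for 11 and lowest for 18. Among these, it was highest for 3 and lowest for 4 of 16 scaffolds. Control replicates 2 and 3 held the highest or lowest value of 13 and 9 members (40.4% and 29.5% of all genes), and Angpt2 shRNA-1 replicates 1, 2 and 3 of 10, 6 and 8 (26.4%, 27.3% and 31.2% of all genes). What sets control replicate 1 apart was not tested. Without it, 7 of 32 fold changes changed sign, the median was -0.0058, the largest size among the members was 0.25 (Itgad), and again 0 members passed.

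**Figure D4:**
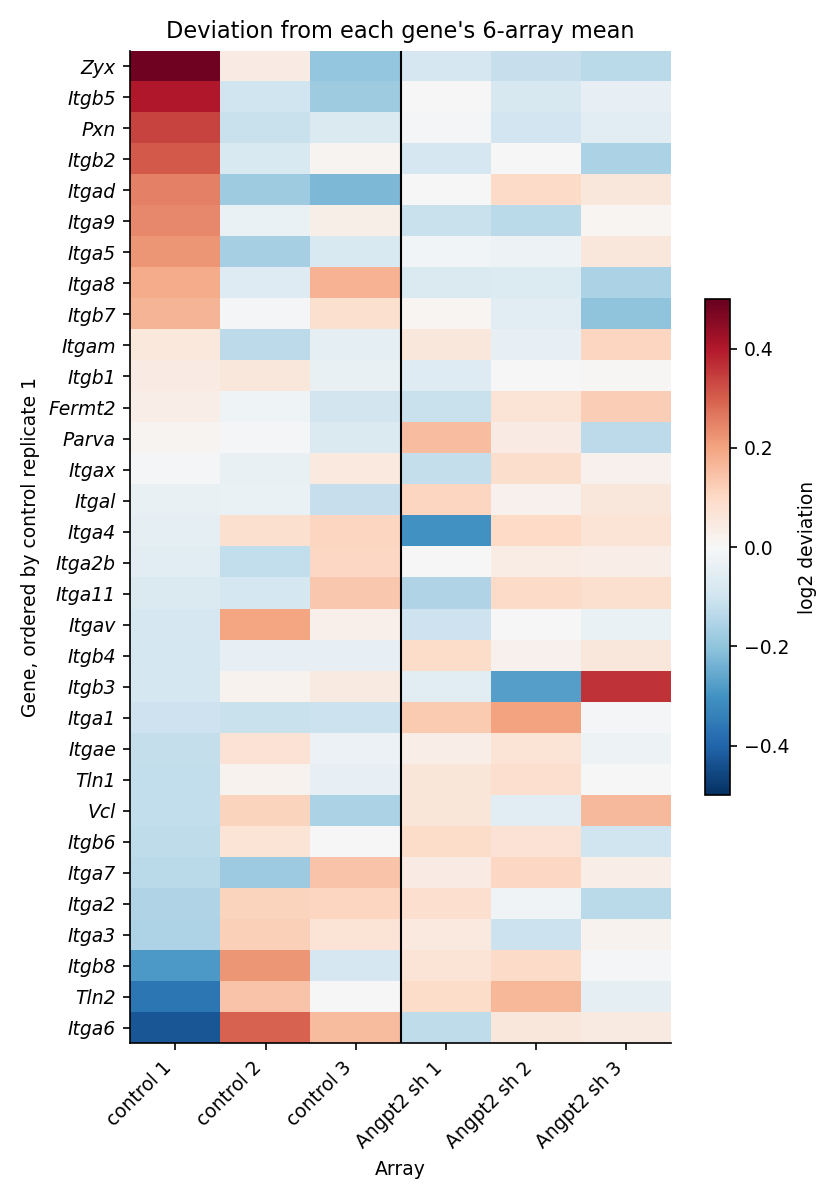
Deviation (log2) of each member on each array from its own mean over the 6 arrays, red above and blue below, with genes ordered by control replicate 1. The strongest colours lie in the first column, from 0.49 for Zyx to -0.43 for Itga6, apart from single cells such as Itgb3 on Angpt2 shRNA-1 replicate 3 (0.36) and Itga4 on Angpt2 shRNA-1 replicate 1 (-0.30).

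Other genes of integrin adhesion were counted from a list of 63, of which 57 were measured and 44 stood above the array median on all arrays. Again 0 passed the limma test, with 2 at an unadjusted p under 0.05 (against 3.76% of genes), 31 positive and 26 negative fold changes and a median of 0.02. The groups did not overlap for 5 genes, 8.77% against 9.01% of genes. Tns3, a tensin that ties the beta tail to actin, read 174, 233 and 187 in controls and 260.3, 238 and 239 in Angpt2 shRNA-1 cells. All its Angpt2 shRNA-1 arrays were above the controls (0.32, SE 0.12, limma adjusted p = 1.00), and without control replicate 1, its lowest array, the value was 0.23.

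Tetraspanins, membrane organisers that bind integrins laterally, had positive fold changes for all 4 genes measured. So had the caveolin gene Cav1 (0.22, SE 0.10, at 65.5 to 89.8). Of all genes, 45.2% had positive fold changes. Cd9 read 421, 479.6 and 543 in controls and 557, 581 and 582 after silencing (0.26, SE 0.10, limma adjusted p = 1.00) and was at 0.17 without control replicate 1. Cd81 read 5696, 5953 and 5318 in controls and 6218, 6079 and 6468 after silencing (0.15, SE 0.08). For both genes the groups did not overlap, with Angpt2 shRNA-1 higher. Cd82 (0.04, SE 0.13) and Cd151, a partner of the laminin receptors (0.01, SE 0.09), overlapped. Without control replicate 1 the sign of Cd151 turned, to -0.06. The remaining genes without overlap were Vasp, an actin polymerase of adhesions (0.13, SE 0.09, higher), and Fermt3, the kindlin of blood cells, at 74.0 to 84.9 (-0.11, SE 0.08, lower). The ILK partners Parvb (958 to 1263; 0.07) and Rsu1 (2536 to 2676; 0.02) were above the upper quartile on all arrays, with overlapping groups.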

How the data were processed

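The deposited table gives the intensity of each transcript cluster on 6 arrays, on a linear scale and normalized by the authors. The scale was read from the values, and the background correction, summarization and normalization are not given in the sources used here. Per the labels' protocols, 100 ng of total RNA per culture was amplified and labelled with biotin. Of 41345 rows, 40425 were complete, and the platform annotation named exactly 1 gene on 23521 of these. For genes with several rows the one with the highest mean was used, which left 22180 genes, and all members' symbols matched RefSeq by gene ID. Values were converted to log2 with no pseudocount and fitted in R 4.3.3 with limma 3.58.1 (lmFit, then eBayes; two-sided tests, p-values adjusted over all genes), after a test on simulated data. Depth has no meaning for arrays, and their number limits the precision.

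No 2 arrays held identical values. Deviations of same-numbered arrays from their group means correlated at 0.13, 0.21 and 0.14. For all 6 arrays, the best-correlated array of the other group was the one with the same number. The labels state no pairing, so a pairing by number rests on these correlations alone. The fit reported was not paired and had no term for the replicate number, and the block was an alternative. Further alternatives were quantile normalization, centring, a filter on dim genes, the mean of all rows of a gene, all rows tested, trend and robust options, array weights, a pseudocount of 16 and each array left out. Members, lists and tests were chosen with earlier results of these data known. Named in full were members above the array median on all arrays, members without overlap and those at an unadjusted p under 0.05. Of the other adhesion genes, those without overlap and the 3 with the smallest p were to be named, and the further ones were chosen after their values were seen. Protein sequences were not used here.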

Additional observations from a re-analysis of the deposited data

How the results depend on the processing

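The members called numbered 0 in every fit run, as did the other adhesion genes called. Over all genes the count called was 0 in the fit reported, 2 with the replicate block that pairs same-numbered arrays, 1 with trend and robust options, and 0 to 2 with 1 array left out. With the block Angpt2 passed (as it did without control replicate 1), and the block changed no other call in the text. The median log2 fold change of the members was 0.018 and ran from -0.0058 (without control replicate 1) to 0.043 (without Angpt2 shRNA-1 replicate 1) with 1 array left out. Members above the median numbered 21, against 17 by the median of named genes, 24 by mean level and 15 by the upper quartile. Members without overlap numbered 4 (12.5%, against 9.01% of all genes), and 3 after quantile normalization and 5 with the mean of all rows of a gene. The share of all genes under these 2 alternatives is not given here. No member's fold change moved by 1 SD between replicates under quantile normalization, centring, the mean of all rows, array weights or a pseudocount. With 1 array of 3 left out a move of that size is not possible. The block, the filter on dim genes (19 members remained), all rows tested and trend and robust options leave the fold changes themselves unchanged. Signs turned for 2 to 7 members with 1 array left out, for 2 with array weights and for 0 in the other fits. At an unadjusted p under 0.05 there were 0 to 2 members with 1 array left out, where 3.76% of all genes were under it in the fit reported. The share of all genes in those fits is not given here. Unadjusted p-values quoted above from fits with 1 array left out were picked from the fits leaving out each array in turn. The smallest for any member in those fits was 0.0130 (limma, without control replicate 2) and is not among those quoted. The absence of detection calls limits what the dim members show.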
